A study of Mus musculus with 2 samples.

Results

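Hhex, Pou3f4, Irx2 and Ttr are 4 genes used as marks of the alpha and delta cells of the pancreatic islet, and their signals were compared between wild-type and PERK knockout islets of newborn mice. They were taken as every probe set that the platform annotation assigns to 1 of these 4 symbols, which gave 7 of the 22690 probe sets on the array: 1 for Hhex, 2 for Pou3f4, 1 for Irx2 and 3 for Ttr. The annotation names 12393 genes in all. The study holds 2 Affymetrix mouse 430A arrays, on which each transcript is read by a set of short oligonucleotides. The first array carries RNA from islets of wild-type mice of mixed strains and mixed sexes. The second carries RNA from islets of PERK knockout mice, for which the labels name no strain or sex. Both groups were taken at age 2 days, and islets were isolated with collagenase P. The sources used here do not say how many pups contributed to either preparation. PERK, the product of Eif2ak3, sits in the endoplasmic reticulum membrane and slows translation when unfolded proteins accumulate there.

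Islets contain several endocrine cell types that arise from common progenitors and are kept apart by sets of transcription factors. Alpha cells secrete glucagon and delta cells secrete somatostatin, which restrains both insulin and glucagon release. Hhex is a homeodomain repressor that mouse delta cells need in order to form. It also acts in the developing liver, in endothelium and in the B lymphocyte lineage. Pou3f4, also called Brn4, is a POU homeodomain factor of alpha cells that binds the glucagon promoter and is also used in the nervous system and inner ear. Irx2 is an Iroquois homeodomain factor found in alpha cells. Ttr encodes transthyretin, a secreted carrier of thyroxine and of retinol bound to its binding protein. It is made in alpha cells, liver and choroid plexus and does not regulate transcription.

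Signals of the 3 transcription factor genes were higher in the knockout library, by 1.92-fold for Pou3f4 and 1.53-fold for both Hhex and Irx2, whereas Ttr was level at 1.01-fold. Their promoters are shown because these 3 genes differed in the same direction. Each sequence is the 250 bases before the RefSeq transcript start on the plus strand of build GRCm38.p6, written 5′ to 3′. Hhex lies at chr19:37434591-37434840, Pou3f4 at chrX:110814129-110814378 and Irx2 at chr13:72628570-72628819. Capitals mark the CCAAT box, read as CCAAT on either strand, and appear as ATTGG where it lies on the minus strand. It is marked because it was the only 1 of 7 motifs searched that was found in these windows.
Hhex: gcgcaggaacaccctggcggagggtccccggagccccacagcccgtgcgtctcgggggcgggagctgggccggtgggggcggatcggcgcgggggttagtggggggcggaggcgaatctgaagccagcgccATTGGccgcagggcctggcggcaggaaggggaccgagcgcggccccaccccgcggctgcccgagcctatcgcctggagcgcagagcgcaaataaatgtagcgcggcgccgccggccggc
Pou3f4: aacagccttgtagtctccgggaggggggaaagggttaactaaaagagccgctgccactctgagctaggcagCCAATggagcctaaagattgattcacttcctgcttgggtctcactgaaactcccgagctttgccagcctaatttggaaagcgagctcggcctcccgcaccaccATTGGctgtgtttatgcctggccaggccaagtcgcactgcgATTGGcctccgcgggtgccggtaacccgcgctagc
Irx2: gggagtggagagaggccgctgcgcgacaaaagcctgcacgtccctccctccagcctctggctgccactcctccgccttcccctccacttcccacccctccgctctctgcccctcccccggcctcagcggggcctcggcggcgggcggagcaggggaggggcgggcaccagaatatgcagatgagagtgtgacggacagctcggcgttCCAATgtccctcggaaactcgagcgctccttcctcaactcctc

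A CCAAT match was present once in the Hhex window, 3 times in the Pou3f4 window and once in the Irx2 window. Of 32851 RefSeq promoter windows of the same length, 33.8% held at least 1 match, and among the 11153 windows with a CpG ratio (observed over expected) of at least 0.6 the share was 33.4%. The Hhex match starts 119 bases before the transcript start and the Irx2 match 43 bases before it, while those of Pou3f4 start 179, 76 and 35 bases before it. No match to any of 6 other motifs, searched on both strands, was found in the 3 windows. These were the TATA box TATAAA (in 12.4% of all windows), the homeodomain core TAATTA (4.84%), the POU octamer ATGCAAAT (1.6%), the cAMP response element TGACGTCA (1.55%), the ATF4 composite element TGATGNAA (3.45%) and the endoplasmic reticulum stress response element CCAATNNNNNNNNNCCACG (0.113%, a motif that contains a CCAAT box). All 3 windows were above the median G and C share of 52.4%, at 76.0% for Hhex, 58.0% for Pou3f4 and 68.4% for Irx2. A lower share was found in 96.7%, 66.8% and 88.4% of all windows, in the same order. The CpG ratio was 0.91, 0.62 and 0.67 for these genes in the same order, against a median of 0.37.

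Hhex read 313.0 in the wild-type library and 479.2 in the knockout library on its single probe set. Signals are the authors' linear intensities per probe set, in arbitrary units, and ratios are log2 of knockout over wild type. The Hhex ratio was 0.61, and the signal moved from the 85.5th to the 90.8th percentile of all probe sets. Irx2 went from 186.0 to 284.1, again on 1 probe set and again with a log2 ratio of 0.61. Its signal moved from the 76.6th to the 83.9th percentile. Neither gene has a further probe set on the array against which its ratio could be set.

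Pou3f4 had the largest ratio of the 4 genes. Its brighter probe set went from 114.4 to 219.4, a log2 ratio of 0.94, and from the 66.3rd to the 79.4th percentile. Its dimmer probe set went from 20.2 to 49.3. The wild-type value lies under the floor of 39.8, the 40th percentile of all signals, below which no level was read. That probe set therefore gives only a bound, at least 1.24-fold higher in the knockout. Both Pou3f4 probe sets were higher in the knockout library, and both derive from the same reference transcript.

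Ttr differed from the other 3 genes in level and in ratio. Its brightest probe set was the brightest on both arrays, at 8132.9 against 8242.3 in the knockout, a log2 ratio of 0.02. The other probe sets went from 6198.9 to 6157.9 (-0.01) and from 4095.7 to 4564.4 (0.16), so the dimmest of the 3 had the highest ratio. Both of these are of a type (_x_at) whose oligonucleotides may also bind other transcripts. All 3 had at least 50.4% of the maximum signal of their array, a range in which differences can be compressed. Among the 40 measured genes within 2-fold of the mean Ttr signal, the SD of the log2 ratios was 0.10, against 0.32 among the 2713 genes within 2-fold of Hhex.

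**Figure D1:**
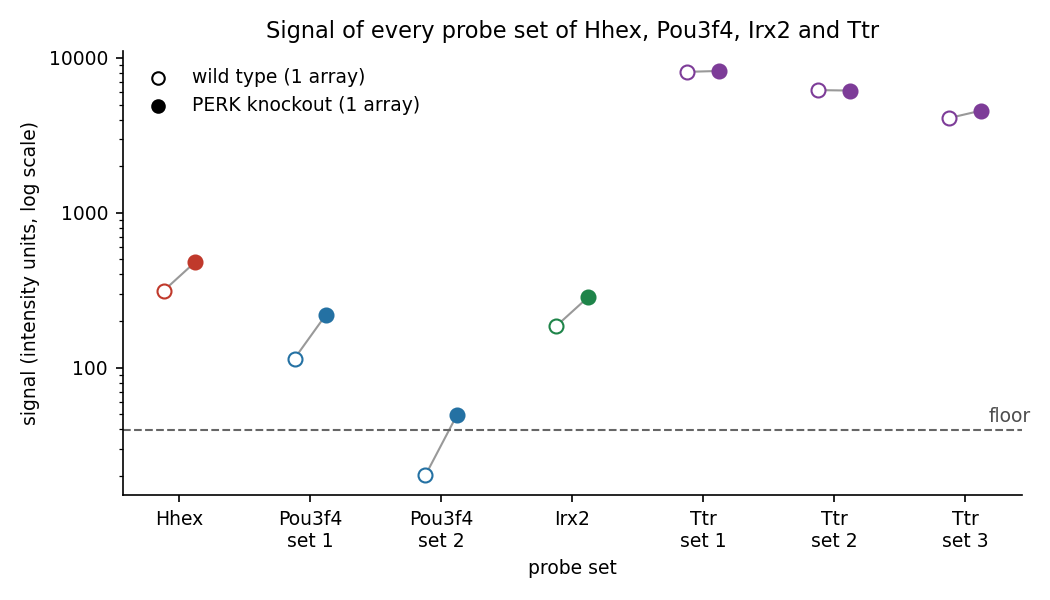
Signal of each of the 7 probe sets (vertical axis, intensity units, log scale) in the wild-type array (open) and the PERK knockout array (filled), with the floor of 39.8 dashed. Hhex, Irx2 and both Pou3f4 probe sets are higher in the knockout, the dimmer Pou3f4 set starting below the floor, and the 3 Ttr sets change little.

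Each genotype had 1 array, so the spread between animals or preparations is unknown and no p-value was computed. Size was judged instead against all 8133 genes above the floor on both arrays, called measured here. Of the 4 genes, 0 were at least 2-fold higher and 0 at least 2-fold lower, and across measured genes these shares were 0.516% and 0.652%. At a limit of 1.5-fold, 3 were higher and 0 lower, against 4.19% and 2.95% of measured genes. This limit was chosen with earlier results of these data known. The 1.5-fold limit corresponds to a log2 ratio of 0.58, only 0.03 below Hhex and Irx2, and centring each array on its median left 1 of the 4 genes, Pou3f4, past it. All measured genes had a median log2 ratio of 0.03, and 54.9% were above 0. Different probe sets of 1 gene disagreed by an SD of 0.26 per probe set over 2597 genes. This SD covers differences between probe sets on the same 2 arrays. It leaves out error that both sets share, and differences between animals, litters and RNA preparations.

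Placed in order of ratio, Pou3f4 ranked 57th of the 8133 measured genes, Hhex 298th, Irx2 306th and Ttr 4201st. Hhex and Irx2 differed by less than the probe set SD. Because dim genes scatter more, each was also set beside genes of similar brightness. Of the 4306 measured genes within 2-fold of the mean Pou3f4 signal, 0.952% had a ratio at least as high, and the 5th to 95th percentile ran from -0.46 to 0.58. For Hhex the share was 1.92% of 2713 genes with a range of -0.46 to 0.46, and for Irx2 it was 3.03% of 3727 genes with a range of -0.45 to 0.52. The 3 transcription factor genes thus lay above the 95th percentile of their neighbours in brightness. For Ttr, 70.0% of 40 genes had a ratio at least as high, within a range of -0.13 to 0.24.

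**Figure D2:**
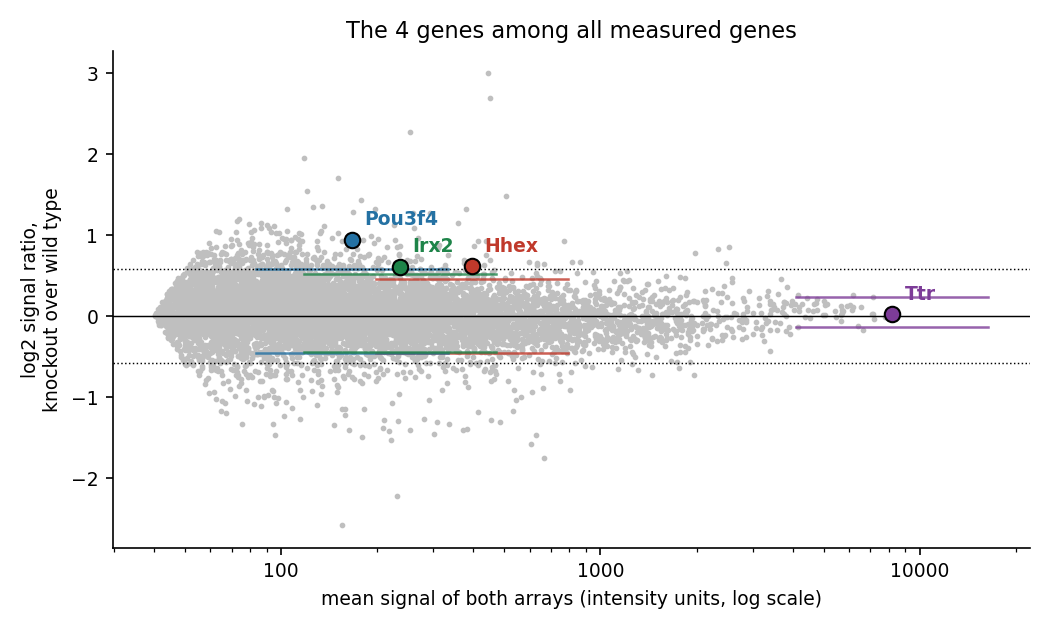
Log2 ratio of knockout over wild type (vertical) against the mean signal of both arrays (horizontal, log scale) for the 8133 measured genes in grey and the 4 genes in colour. Coloured lines give the 5th and 95th percentile among genes within 2-fold of each one's mean signal, and dotted lines 1.5-fold. Pou3f4, Hhex and Irx2 sit above their upper line and Ttr sits between its lines.

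The genes nearest to each in both signals were listed by distance in log2 units, over these 2 arrays only. Nearest to Hhex were Ppdpf (316.2 to 487.0, distance 0.03), Strn3 (0.04) and Igbp1 (0.05). Nearest to Pou3f4 were Myrf (115.1 to 220.6, distance 0.01), Klb (0.04) and Myt1 (0.11), of which Myt1 is a zinc finger factor of endocrine progenitors. Nearest to Irx2 were Neo1 (188.1 to 278.2, distance 0.03), Cldn6 and Thap11 (both 0.04). Nearest to Ttr were Rpl41 (7852.5 to 7759.4, distance 0.10) and the acinar enzyme genes Cela3b (0.27) and Ctrb1 (0.28). Within a distance of 0.2 lay 27 measured genes for Hhex, 10 for Pou3f4, 53 for Irx2 and 1 for Ttr.

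Among other alpha cell transcription factors, all that were measured lay above 0, against 54.9% of all measured genes. Of this list 5 genes were analysed here. Irx1, an Iroquois relative of Irx2, went from 169.6 to 215.6 (0.35), and Foxa2, a forkhead factor of all islet cells, from 456.7 to 497.2 (0.12). Foxa1 was at the floor on both arrays. With Irx2 and Pou3f4 the 4 measured genes had a median log2 ratio of 0.48, against 0.03 over all measured genes, and without these members the other 2 had 0.23.

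Products of alpha cells differed by less than 1.5-fold. Gcg, the glucagon gene, went from 5661.5 to 5718.1 (0.01), at 69.6% and 69.4% of the array maximum. Of 10 genes on this list 6 were measured, with 5 above 0 (3 to 5 under the other scalings), against 54.9% of all measured genes. None of the 6 was 1.5-fold apart, against 4.19% higher and 2.95% lower over all measured genes. The median was 0.10, or 0.19 without Ttr. Ttr and Gcg were the brightest genes on the list, in the range where differences can be compressed. Slc38a5, a glutamine transporter, went from 2219.5 to 1957.0 (-0.18). The peptidase gene Dpp4 (0.26), the somatostatin receptor gene Sstr2 (0.22) and Loxl4 (0.19) completed the measured genes with Ttr and Gcg. Slc7a2, an arginine transporter, was close to the floor in both libraries (40.4 and 34.6). In bulk RNA, more cells of a type and more RNA per cell cannot be told apart, and this holds for each list given here.

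Delta cell genes were higher for 5 of 6 measured members (4 or 5 under the other scalings), against 54.9% of all measured genes. Hhex was the only delta cell gene at least 1.5-fold apart, and 4.19% of all measured genes were that much higher. Sst, the somatostatin gene, went from 5644.6 to 5867.9 (0.06), at 69.4% and 71.2% of the array maximum, where differences can be compressed. Rbp4, the retinol-binding protein that circulates in complex with transthyretin, went from 3355.8 to 4315.4 (0.36). Ptprz1, a receptor phosphatase, had 55.1 and 76.3 (0.47, and 0.39 on a second measured probe set). The calcium-sensing receptor gene Casr had 105.6 and 131.7 (0.32), and the leptin receptor gene Lepr 50.9 and 50.6 (-0.01). The list median was 0.34, or 0.32 without Hhex. The gastrin receptor gene Cckbr was at the floor on both arrays, and Crhr2 was above it in the knockout only, at least 1.09-fold higher.

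Genes of the other islet cell types were read in the same way. All 4 measured gamma and epsilon cell genes were above 0 with a median of 0.33, against 54.9% and 0.03 over all measured genes. Ghrl, the ghrelin gene of epsilon cells, went from 1461.3 to 2503.4 (0.78), Arg1 from 175.8 to 233.6 (0.41), Pyy from 5654.0 to 6747.5 (0.26) and Ppy from 6573.3 to 7732.9 (0.23). Pyy and Ppy lay between 69.5% and 93.8% of the array maximum, where differences can be compressed. Beta cell genes lay on the other side of 0, with 8 of 9 measured genes below it and a median of -0.58. Over all measured genes 45.1% were below 0. At least 1.5-fold lower were 4 of the 9, against 2.95% of all measured genes. These were the granule protein gene Sytl4 (-1.31), the cation channel gene Trpm5 (-1.15), the glucose transporter gene Slc2a2 (-0.89) and the glucose-6-phosphatase subunit gene G6pc2 (-0.73). The beta cell homeodomain factor Nkx6-1 went from 488.1 to 326.2 (-0.58) and Pdx1 from 310.2 to 245.5 (-0.34). Ins2 (0.12) and Iapp (-0.13) were the brightest genes on that list, at 69.5% to 82.5% of the array maximum, where differences can be compressed. Further Iapp probe sets ran from -0.18 to 0.11. No difference between lists was tested.

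Factors shared by all endocrine cells and their progenitors were split, with 5 of 9 measured genes above 0 and a median of 0.20. Over all measured genes 54.9% were above 0, so this count lay near the share of the whole array. Myt1 went from 114.6 to 203.7 (0.83) and Neurog3, the factor that starts endocrine development, from 109.8 to 166.4 (0.60). These 2 of the 9 were the only ones at least 1.5-fold higher, against 4.19% of all measured genes. Meis1 had a log2 ratio of 0.52, Isl1 of 0.33 (0.19 on a second set) and Meis2 of 0.20. On the lower side were Insm1, a zinc finger factor, at -0.57, Neurod1 at -0.16 (0.17 on a second set), Pax6 at -0.15 (-0.27 and 0.24 on further sets) and Nkx2-2 at -0.01. No level could be read for Rfx3, Pax4 or Nkx6-2, which stayed under the floor in both libraries.

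Few of the listed relatives of Irx2 and Pou3f4 were detected. Over the whole array 3567 of 12393 genes were at the floor on both arrays. Of 5 other Iroquois genes, Irx1 and Irx6 were measured. Irx6 had 42.4 and 60.9 (0.52), close to the floor in the wild type, and Irx3, Irx4 and Irx5 were at the floor on both arrays. Of 13 other POU genes 8 are named on this array, and the 3 class III relatives of Pou3f4 (Pou3f1, Pou3f2 and Pou3f3) were all at the floor in both libraries. Pou6f1 had 67.5 and 83.9 (0.31) and Pou2f3 had 49.1 and 48.3 (-0.02). Pou2f2 was just above the floor in the knockout only (39.2 and 40.8). Within these families the alpha cell factors Irx2 and Pou3f4 were the only measured genes at least 1.5-fold apart. Over all measured genes 4.19% were that much higher. However, Irx2 (0.61) and Irx6 (0.52) differed by less than the probe set SD of 0.26. Irx2 also fell below 1.5-fold with median centring, loess and the pseudocount, so the limit does not set it apart from its relatives.

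**Figure D3:**
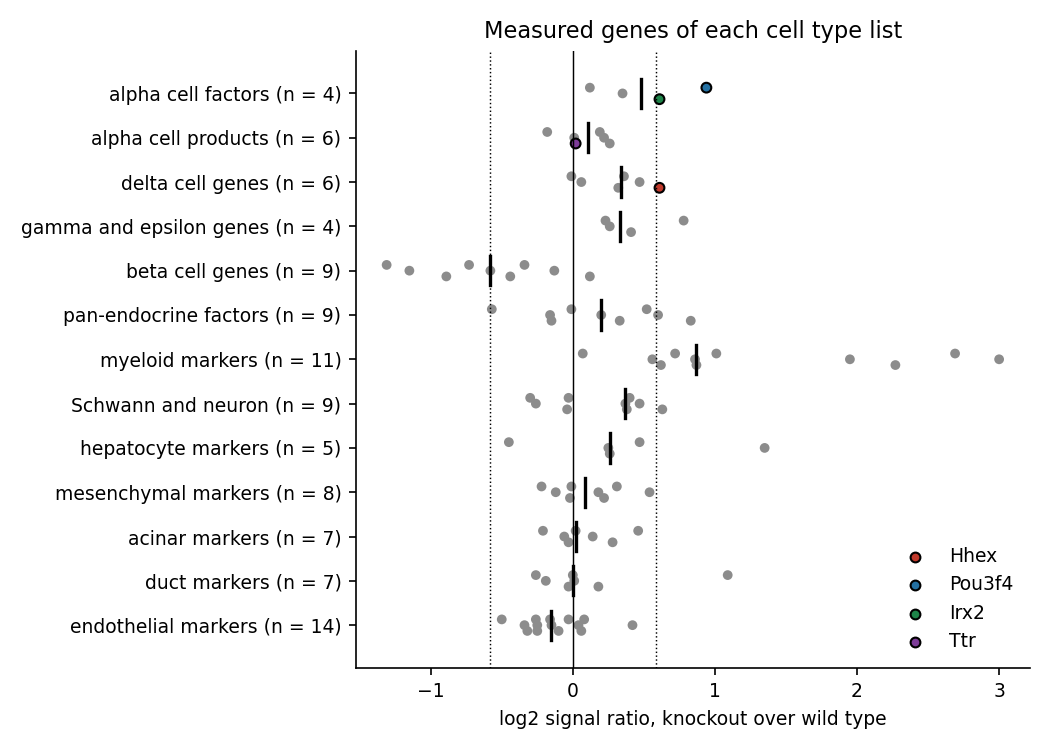
Log2 ratio of knockout over wild type (horizontal) for every measured gene of 13 cell type lists, 1 point a gene, with the list median as a black bar, dotted lines at 1.5-fold and the 4 genes in colour. Alpha, delta, gamma and epsilon lists have medians from 0.10 to 0.48, beta cell genes -0.58 and myeloid markers 0.87. The value of 0.48 belongs to the alpha cell factors and is 0.23 without Irx2 and Pou3f4.

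Markers of other cell types that use these genes differed between the 2 preparations to unequal degrees. Hepatocytes make Ttr and Hhex. Of 10 hepatocyte markers on the array 5 were at the floor on both, among them Afp, Ahsg, Fga and Fgg. Above 0 were 4 of the 5 measured, against 54.9% of all measured genes. Alb had 83.7 and 116.3 (0.47), while Apoa1 had 126.3 and 92.3 (-0.45, and -0.24 on a second measured probe set). The summed list went from 1269.0 to 1577.4, of which Ambp gave 844.7 and 1013.6. Fgb, a fibrinogen chain, was the exception in size, at 70.8 and 180.0 (1.35). Endothelium also makes Hhex. All 14 endothelial markers were measured and 10 were below 0, against 45.1% of all measured genes. The summed signal of this list went from 5011.5 to 4611.6, with Esam at -0.10 and Plvap at 0.08. Of 7 B lymphocyte markers none was above the floor in the wild type. In the knockout 4 (Cd79a, Cd79b, Ms4a1 and Blnk) were above the floor of 39.8, with signals of 49.0 to 66.2. Over the whole array 693 of 12393 genes were above the floor on only 1 array, whichever it was. The summed B lymphocyte list went from 156.2 to 268.9. The part of hepatocytes in the Ttr and Hhex ratios was not tested, nor was that of endothelium or B lymphocytes in the Hhex ratio.

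Myeloid markers had the highest list median, at 0.87. All 11 measured were above 0 and 9 were at least 1.5-fold higher, against 54.9% and 4.19% of all measured genes. The summed list went from 1575.6 to 4287.3, led by S100a8 (98.9 to 788.8), S100a9 (120.8 to 778.3), Ngp (2.27) and Lcn2 (1.95). The part of these cells in the ratios of Hhex, Pou3f4 and Irx2 was not tested. Pou3f4 is also used in the nervous system. Of 9 measured Schwann cell and neuron markers 5 were above 0, near the share of 54.9% over all measured genes. The list median was 0.37 and the summed list went from 1397.1 to 1571.1. That median was 0.17 with the floor at the 25th percentile and 0.15 with a pseudocount of 16 and no floor. The neurofilament genes Nefl (0.63) and Nefm (0.40) were higher, while Th was at -0.26 and the Schwann cell factor gene Sox10 at -0.04. Their part in the Pou3f4 ratio was not tested.

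Exocrine and connective tissue markers had list medians between 0.00 and 0.09. Acinar markers had a median of 0.02 over 7 genes, with Cela3b from 7279.4 to 7119.1 and Ctrb1 from 7076.3 to 7178.3. Both genes lay between 86.4% and 89.5% of the array maximum, where differences can be compressed, and the less bright lipase gene Cel went from 2174.3 to 2999.1 (0.46). Both islet preparations thus held strong acinar signals besides the hormones. Duct markers had a median of 0.00 over 7 genes, with Krt18 at 0.18. Krt8 was at 0.00 (-0.20 and -0.13 on further sets) and Tspan8 at 1.09 (0.57 and 0.65 on further sets). Mesenchymal markers had a median of 0.09 over 8 genes, with Sparc at -0.02 and Vim at -0.01. As a check of the labels, the brightest Eif2ak3 probe set read 117.7 in the wild type against 58.7, 2.01-fold lower, while 2 more stayed under the floor in both libraries. The sources used here do not say which exons were deleted, so a probe set outside them would check nothing.

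The ratios of the 4 genes changed little over 9 processing alternatives, but only some of these could change them. Pou3f4 stayed between 0.85 and 0.94, Hhex between 0.58 and 0.63 and Irx2 between 0.57 and 0.61. These 3 genes kept their reported ratios on the deposited scale, which was already equal, and with either other floor, which lay below the signals used. Both probe set choices also left them unchanged, because each gene had 1 measured probe set, not of the _x_at or _s_at type. Ttr lay between -0.07 and 0.02, and fell below 0 with median centring (-0.02) and with loess (-0.07), so its direction is not settled.

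**Figure D4:**
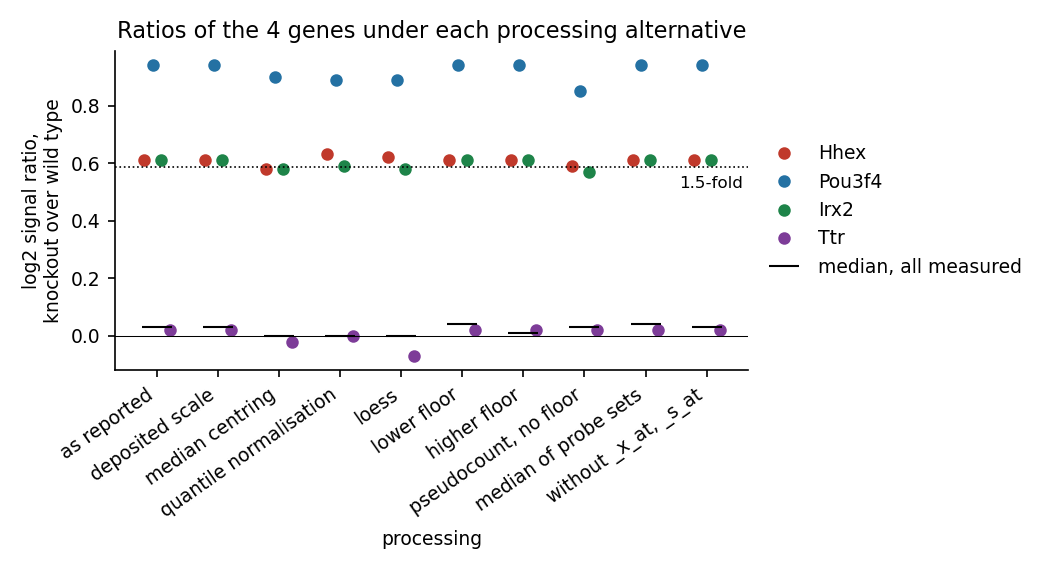
Log2 ratio of knockout over wild type (vertical) of the 4 genes as reported and under each of 9 processing alternatives (horizontal), with the median of all measured genes as a dash and 1.5-fold dotted. Pou3f4 is highest throughout, Hhex and Irx2 stay between 0.57 and 0.63, and Ttr stays near 0.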

How the data were processed

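Islet RNA from 1 wild-type and 1 PERK knockout preparation was hybridised to 1 array each. The deposited values are linear signal intensities, 1 for each probe set, made by the authors with GCOS 1.02 per the submitters' processing notes. The sources used here do not state the background correction, the summary method or detection calls. Both arrays had a 2% trimmed mean of 150.1, so they had been scaled before deposit.

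Both arrays were set to 1 trimmed mean (factor 1.00), signals below the 40th percentile of both (39.8) were set to that floor, and log2 ratios were taken. A gene is represented by its probe set with the highest mean signal. Of 12393 genes, 8133 were measured, 693 were above the floor on 1 array and 3567 on neither. Of 22690 probe sets, 20380 had 1 gene, 691 several, 1555 none, and 64 were controls. The array annotation states no genome build, so only the RefSeq promoter windows have coordinates.

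The members, the 18 gene lists and the 1.5-fold limit were chosen with earlier results of these data known. Named genes are the 4 members, the 3 nearest genes of each, Eif2ak3, all measured islet transcription factors and relatives, all hormones, and in each list the measured genes at least 1.5-fold apart (up to 4 a direction) with the 2 brightest. Others were chosen after seeing their values. The scripts were tested on simulated data over the 12393 genes: at a simulated 2-fold change, 94.0% of changed measured genes passed 1.5-fold, at a simulated 1.5-fold change 47.9% did, and 1.1% of unchanged genes were at least 1.5-fold higher, with probe set error as the only noise. The number of arrays limits the precision. Python 3.11.15, numpy 2.4.6, pandas 2.3.3, scipy 1.17.1 and statsmodels 0.14.6 (loess) were used.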

Additional observations from a re-analysis of the deposited data

How the results depend on the processing

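The 9 alternatives changed the scaling (values as deposited, median centring, quantile, loess), the floor (25th percentile, 60th percentile, or none with a pseudocount of 16) or the probe sets (a gene's median over its measured sets, or no _x_at and _s_at sets). A value was taken as moved where it changed by at least the probe set SD of 0.26. No log2 ratio of the 4 genes moved, and 0 of them were 2-fold apart under any alternative. For Hhex, Pou3f4 and Irx2 only median centring, quantile normalisation, loess and the pseudocount could change the ratio. The count at least 1.5-fold higher was 3 as reported, 1 with median centring, and 2 with loess and with the pseudocount, because Hhex and Irx2 lie near the limit. Of 17 list medians, 1 moved: that of the hepatocyte markers was 0.26 as reported and -0.09 with the floor at the 60th percentile. That of the Schwann cell and neuron markers changed by less than this SD, from 0.37 to 0.17 with the floor at the 25th percentile and 0.15 with the pseudocount. The number of genes at least 2-fold apart over the whole array ranged from 13 higher and 28 lower with that floor to 81 higher and 80 lower with the floor at the 25th percentile and 88 higher and 78 lower with the pseudocount, against 42 and 53 as reported; with quantile normalisation it was 27 and 59, and with loess 26 and 56. The split at 1.5-fold turned from 4.19% higher and 2.95% lower to 3.24% and 3.60% with quantile normalisation and to 3.12% and 3.56% with loess. It kept its direction with median centring, at 3.56% and 3.39%. List medians near 0 changed sign under at least 1 alternative for the pan-endocrine factors (lowest -0.03), other POU genes (-0.09), acinar (-0.07) and mesenchymal markers (-0.01). Counts above 0 under the 4 scalings were 4 of 4 for alpha cell factors, 4 of 4 for gamma and epsilon genes and 1 of 9 for beta cell genes. No paired analysis was possible because each genotype has 1 array.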

Other observations

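Genes around transthyretin were mostly dim. Of 24 genes for retinoid and thyroid hormone carriers, enzymes and receptors 21 are named on the array, 8 were measured and 12 were at the floor on both arrays, among them the retinol-binding protein receptor gene Stra6 and the thyroid hormone receptor gene Thrb. The 8 had a median log2 ratio of 0.21 with none 1.5-fold apart, against 4.19% higher and 2.95% lower over all measured genes. Dio1, a deiodinase that activates thyroxine, had 49.6 and 74.1 (0.58), Dio2 was above the floor in the knockout only and at least 1.41-fold higher, Rxra had 0.43 (0.16 on its other measured probe set), and Thra had -0.24 (0.34 on its other measured probe set).

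All 6 genes of the Groucho family, which includes corepressors used by homeodomain repressors, were measured, with a median of 0.11. Of the 6, 5 were above 0 (4 or 5 under the other scalings), against 54.9% of all measured genes. Tle6 went from 97.4 to 158.8 (0.71) and was the only one at least 1.5-fold apart, and 4.19% of all measured genes were that much higher. The brightest, Tle1, went from 378.8 to 338.2 (-0.16, and 0.01 on its other measured probe set), and Tle3 from 179.5 to 194.6 (0.12).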
